A study of Mus musculus with 6 samples.

Results

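The fusion of myoblasts into multinucleated myotubes is carried by some membrane proteins and restrained by others. Here 10 of their genes are described in mouse C2C12 cells after knockdown of huntingtin (Htt). The genes were taken by name: myomaker (Mymk), myomerger (Mymx), Tmem182, the ferlins Myof and Dysf, caveolin-3 (Cav3), the tetraspanins Cd9 and Cd81, and the adhesion receptors Adgrb1 and Adgrb3. All 10 were measured, among 22180 genes on the array, and each was represented by the brightest of its probe sets (groups of probes summarised to 1 value). C2C12 is a myoblast line that withdraws from the cell cycle and fuses when serum is lowered. One group received an siRNA pool against Htt (3 arrays, called knockout in the titles), and the controls received scramble siRNA (3 arrays). Both groups are C2C12 cells from ATCC kept in standard medium. The labels give neither the hours between transfection and lysis nor whether the cells were dividing or differentiating. Nothing says that replicates were separate cultures, so p-values measure a spread that may be technical. Total RNA was measured by microarray, and all levels are deposited log2 RMA values (robust multi-array average).

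Myomaker and myomerger are the muscle-specific fusogens. Myomaker, which spans the membrane several times, is needed for the outer leaflets of the membranes to mix, and the small protein myomerger is needed for the fusion pore to form. Their genes are switched on by MyoD and myogenin as myoblasts enter terminal differentiation. Around them act proteins with wider roles: ferlins that drive calcium-dependent membrane merging and repair, caveolin-3 of the muscle caveolae, tetraspanins that organise membrane proteins, and adhesion receptors of the BAI family that take part in fusion signalling.

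Among the fusion genes, Mymk and Tmem182 were more than 2-fold higher in the Htt siRNA cells, Mymx was slightly higher at a weak signal, and the remaining 7 differed by less than 0.2 on the log2 scale. Differences were tested with limma over all 22180 genes, with Benjamini-Hochberg adjustment and a threshold of 0.05. At that threshold 0 of the 10 genes passed, as did 0% of all genes (0 of 22180, with 2409 at an unadjusted p under 0.05). An unadjusted p under 0.05 was found for 3 of the 10, all higher (Mymk, Mymx and Tmem182). Over all genes the share was 10.9%, made up of 5.72% higher and 5.14% lower. With arrays centred on their medians, the split over all genes was 911 higher and 1465 lower, in place of 1269 higher and 1140 lower. Upwards, 2 of the 10 (Mymk and Tmem182) reached a fold of 2 or more, against 0.144% of all genes. Shares of the 10 beside all genes are a description only, because the members were chosen with earlier results of these data known. The 3 arrays of each group did not overlap for 4 of the 10, all higher (the same 3 and Cd81), against 10.1% of all genes higher and 5.91% lower. The median log2 fold change of the 10 genes was 0.13, beside 0.03 over all genes. With arrays centred on their medians, those medians were 0.10 and -0.00127. Without Htt siRNA replicate 2, 540 genes passed (117 higher and 423 lower), among them Mymk and Tmem182.

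**Figure D1:**
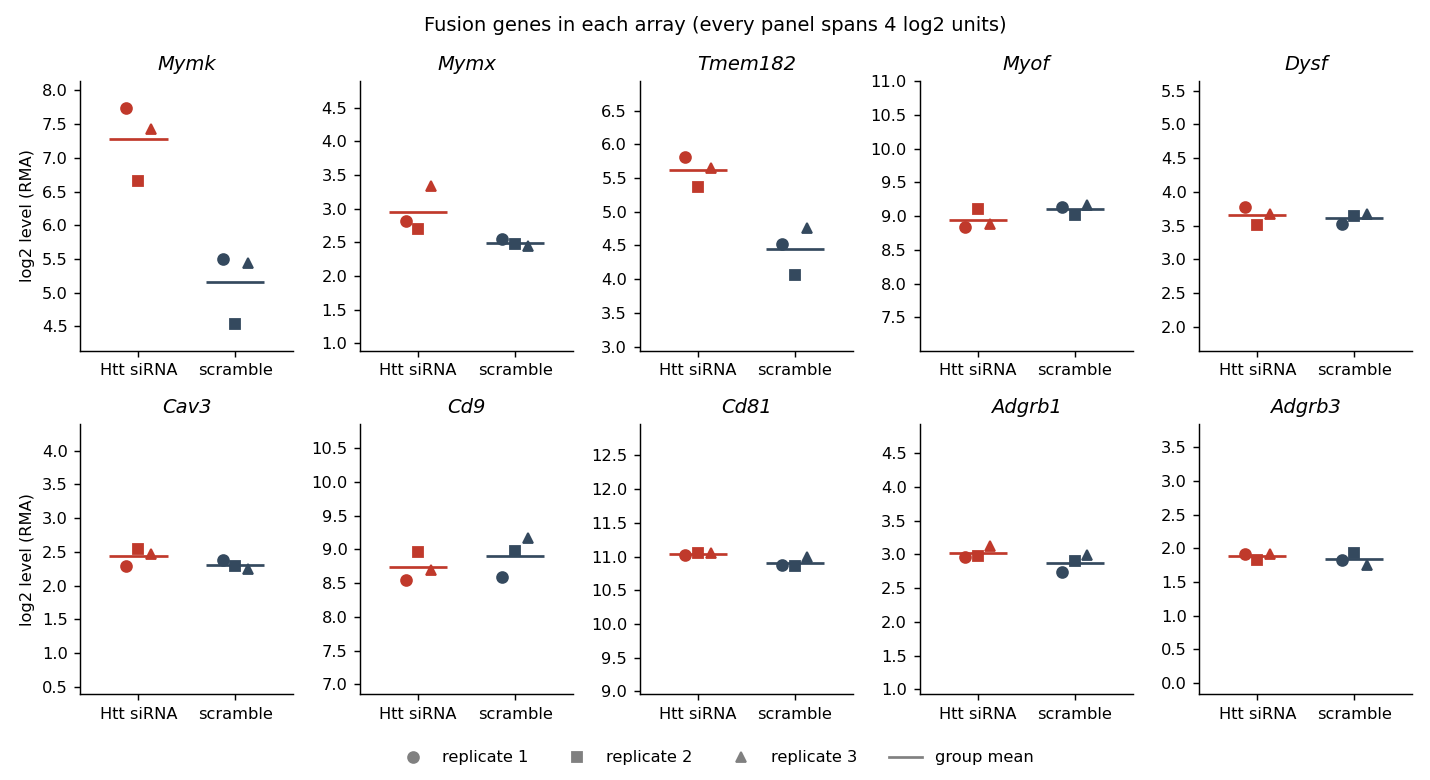
Log2 level of each fusion gene in each array. Htt siRNA arrays are left and scramble arrays right, symbols mark replicates, bars mark group means, and every panel spans the same number of log2 units. Mymk and Tmem182 separate the groups by 1.16 and 0.61 log2 units between the nearest arrays, while the arrays of Myof, Dysf, Cav3, Cd9, Adgrb1 and Adgrb3 overlap.

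The knockdown was present in each array of its group. Htt stood at 4.49, 4.47 and 4.65 in the Htt siRNA arrays, against 5.59, 5.60 and 5.72 in the scramble arrays, leaving 46.6% of the scramble level (95% interval 40.2 to 53.9%). The limma log2 fold change was -1.10 ± 0.09 (SE), with an adjusted p of 0.0559 (0.00778 to 0.348 over the alternatives run).

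Arrays within a group were unlike in a further respect. A list of 19 measured genes of the unfolded protein and integrated stress responses averaged 8.13, 6.20 and 8.17 in Htt siRNA replicates 1, 2 and 3, against 8.27, 6.44 and 6.87 in scramble replicates 1, 2 and 3. The low arrays were Htt siRNA replicate 2 and scramble replicates 2 and 3. In limma 0 of the 19 passed, and 0 were under 0.05 unadjusted (median log2 fold change 0.26). Log2 fold changes were positive for 18 of the 19, as for 58.2% of all genes. The largest was that of Sdf2l1, a chaperone cofactor (1.02 ± 0.87, SE). The only negative one was that of Slc7a11, the cystine transporter (-1.27 ± 1.00). Without Htt siRNA replicate 2 the unadjusted count was 7, all higher. Of 10 markers of C2C12 myoblasts, Myog and Mymk among them, all 10 lay above the median gene mean of 2.95, which is taken here as the level near background. Of 8 endothelial markers 0 did so, with mean levels of 2.23 to 2.28 in Htt siRNA arrays and 2.13 to 2.21 in scramble arrays. The counts for the other cell types were 3 of 8 macrophage, 2 of 8 adipocyte, 5 of 8 fibroblast and 6 of 8 neuronal markers. The macrophage level was 2.75 to 2.81 in Htt siRNA arrays and 2.78 to 2.83 in scramble arrays, with the leukocyte marker Ptprc at a mean of 2.12 in both. Of the 8, 2 were lower and 0 higher at an unadjusted p under 0.05: Cd68 averaged 3.91 in Htt siRNA arrays and 4.30 in scramble arrays (-0.39 ± 0.14, SE), and Cd14 4.05 and 4.35 (-0.30 ± 0.12). The adipocyte level was 3.10 to 3.22 in Htt siRNA arrays and 3.10 to 3.17 in scramble arrays. Of its 8 genes 1 was higher and 0 lower at an unadjusted p under 0.05 (Cidec 0.52 ± 0.12). The neuronal level was 5.41 to 5.87 in Htt siRNA arrays and 5.68 to 5.75 in scramble arrays. Of its 8 genes 1 was lower (Nefl -1.54 ± 0.45) and 1 higher (Map2 0.31 ± 0.13) by the same rule, both without overlap of the groups. Over all genes the shares by that rule were 5.72% higher and 5.14% lower. The fibroblast list, whose collagen and decorin genes myoblasts also express, was 5.38 to 5.51 in Htt siRNA arrays and 4.99 to 5.17 in scramble arrays. Of its 8 genes 3 were higher at an unadjusted p under 0.05 (Dcn 1.69 ± 0.30, Col1a1 1.17 ± 0.23 and Col3a1 0.40 ± 0.12) and 1 was lower (Pdgfra -0.26 ± 0.11), while Pdpn had a value of -0.15 with groups that did not overlap.

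Mymk, the gene of myomaker, was higher in every Htt siRNA array than in any scramble array. Across Htt siRNA replicates 1, 2 and 3 it measured 7.74, 6.65 and 7.43 on the log2 scale, against 5.50, 4.54 and 5.45 in the scramble replicates. Replicate 2 was the lowest array of each group. The group means were 7.27 ± 0.56 with Htt siRNA and 5.16 ± 0.54 with scramble (SD, n = 3 each). These SDs exceeded those of 98.1% of genes with Htt siRNA and 99.0% with scramble. In limma the difference was 2.11 ± 0.33 (log2, SE), or 4.32-fold (95% interval 2.54 to 7.35), with an adjusted p of 0.169. Set against the scramble mean, the single Htt siRNA arrays stood at 5.96-fold, 2.81-fold and 4.81-fold.

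The call for Mymk depended on the arrays and the model, whereas the direction was the same in all 14 alternatives. Since the groups did not overlap, neither leaving out a single array nor weighting the arrays could have reversed that direction. The filter, the probe set rule (Mymk has 1 probe set), the variance prior and the replicate block leave the log2 fold change itself unchanged. The shared direction in those settings is therefore no support. The adjusted p in limma was 0.0103 without Htt siRNA replicate 2 and 0.0188 with the stress list's level as a covariate, with log2 fold changes of 2.42 and 1.98. Leaving out Htt siRNA replicate 3 gave 2.03 and an adjusted p of 0.624, in a range of 0.00329 to 0.624 over the alternatives. In RNA of a whole culture, more RNA per cell and more cells that express a gene cannot be told apart. The part of the fibroblast list's genes in the Mymk difference was not tested.

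Mymx, the gene of myomerger, gave a weak signal. Its level was 2.82, 2.70 and 3.34 in the Htt siRNA arrays, against 2.54, 2.48 and 2.45 in the scramble arrays. The groups did not overlap, with a gap of 0.16 between the nearest arrays, and Htt siRNA replicate 3 stood apart from the other two of its group. The means were 2.95 ± 0.34 with Htt siRNA and 2.49 ± 0.05 with scramble (SD, n = 3 each). In limma the log2 fold change was 0.47 ± 0.16 (SE), or 1.38-fold (95% interval 1.07 to 1.79), with an adjusted p of 0.398. Without Htt siRNA replicate 3 it was 0.27, and its unadjusted p was above 0.05 without scramble replicate 2 or scramble replicate 3. The 6-array mean of 2.72 is below the median gene mean, a range in which RMA compresses differences.

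Tmem182 encodes a muscle membrane protein that has been reported in mouse and chicken to bind integrin beta 1 and restrain fusion. Across Htt siRNA replicates 1, 2 and 3 it measured 5.82, 5.37 and 5.65, against 4.52, 4.06 and 4.76 in the scramble replicates. As for Mymk, replicate 2 was the lowest array of each group and the groups did not overlap. The means were 5.61 ± 0.22 with Htt siRNA and 4.45 ± 0.36 with scramble (SD, n = 3 each). These SDs exceeded those of 79.4% of genes with Htt siRNA and 96.0% with scramble. In limma the log2 fold change was 1.17 ± 0.19 (SE), or 2.24-fold (95% interval 1.65 to 3.05), with an adjusted p of 0.169. It was 1.29 without Htt siRNA replicate 2 (adjusted p = 0.0250 in limma) and 1.11 with the stress covariate (adjusted p = 0.0440), and the range of adjusted p over the alternatives was 0.0246 to 0.624. Without scramble replicate 2 the value was 0.97, just under 2-fold.

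**Figure D2:**
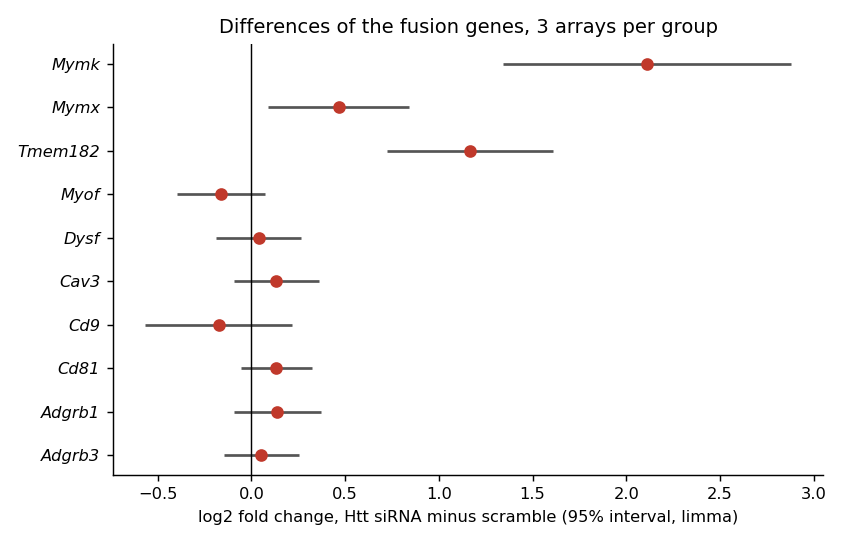
Log2 fold change of each fusion gene, Htt siRNA minus scramble, with its 95% interval from limma (3 arrays per group). The intervals of Mymk, Tmem182 and Mymx lie above 0, before adjustment over all genes, and those of the other members include 0.

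**Figure D3:**
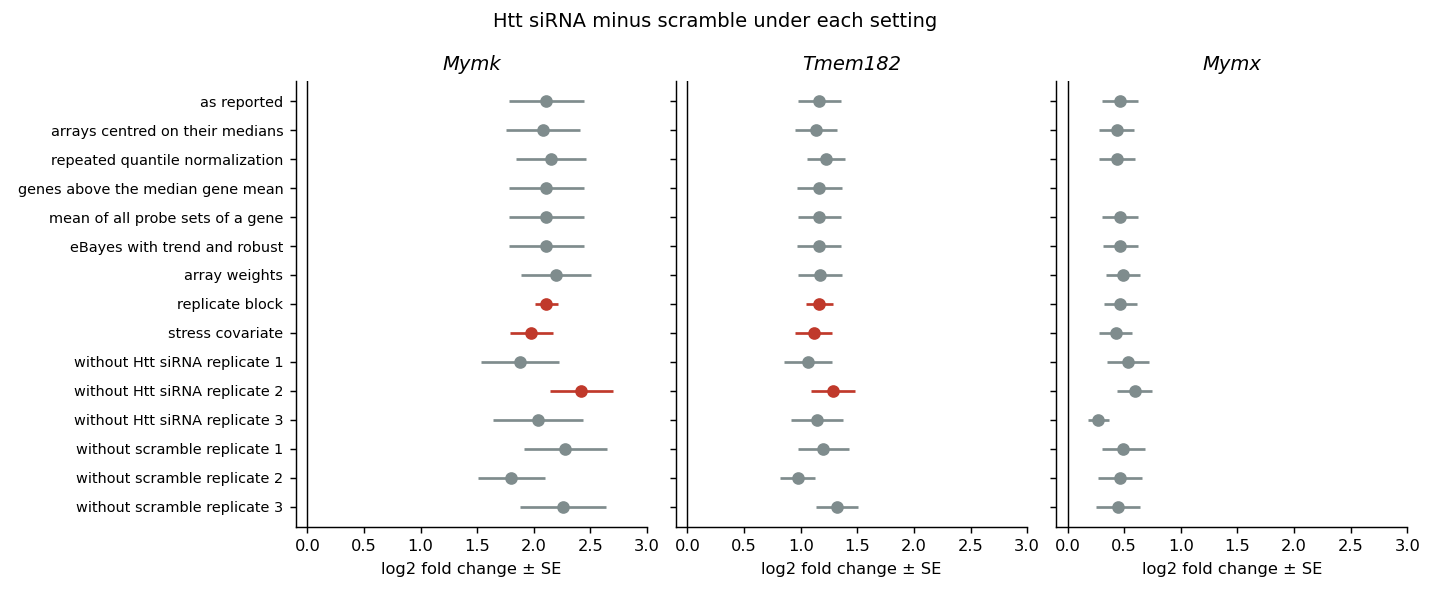
Log2 fold change of Mymk, Tmem182 and Mymx with its SE in the reported fit and under each alternative. Points in red have an adjusted p under 0.05 in limma and grey points do not. All points lie above 0, and Mymx has no value among genes above the median gene mean.

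The promoter of Tmem182 is shown with that of Cd81, whose fold interval includes 1, because both hold an E-box of the form CAGCTG, the core sequence that MyoD family factors prefer. RefSeq windows of the GRCm38.p6 build, reaching from 250 bases before to 50 bases after the annotated start, were found for 7 of the 10 genes, and Dysf had 2, giving 8 windows. Mymk, Mymx and Adgrb1 had none, so the counts of windows leave out both fusogens. The Tmem182 window is chr1:40805351-40805650 on the plus strand and the Cd81 window is chr7:143052500-143052799 on the plus strand. Capitals mark every E-box CANNTG, a motif that reads alike on both strands and of which CAGCTG is one form.
Tmem182: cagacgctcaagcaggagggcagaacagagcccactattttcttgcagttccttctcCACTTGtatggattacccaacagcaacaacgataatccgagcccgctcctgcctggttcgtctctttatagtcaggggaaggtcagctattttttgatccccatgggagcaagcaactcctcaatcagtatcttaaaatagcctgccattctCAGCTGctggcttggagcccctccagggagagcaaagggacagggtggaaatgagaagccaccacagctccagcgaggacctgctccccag
Cd81: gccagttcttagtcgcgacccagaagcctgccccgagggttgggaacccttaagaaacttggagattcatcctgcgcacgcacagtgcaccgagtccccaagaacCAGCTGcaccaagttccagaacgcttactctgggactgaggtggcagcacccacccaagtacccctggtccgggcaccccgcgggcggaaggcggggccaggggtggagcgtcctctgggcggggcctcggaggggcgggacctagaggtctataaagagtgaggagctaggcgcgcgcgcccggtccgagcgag
Counted from the annotated start, with bases before it negative, Tmem182 has CACTTG at position -193 and CAGCTG at position -41. Cd81 has 1 E-box, CAGCTG at position -145. CAGCTG was present in 4 of the 8 windows (Tmem182, Cav3, Cd9 and Cd81), against 16.3% of all 32851 promoter windows of this length, and any CANNTG in 6 of the 8, against 72.3%. A match describes the letters of a window and is not a measured binding site. A window with CAGCTG occurred beside a difference of more than 2-fold (Tmem182) and beside differences whose intervals include 0 (Cav3, Cd9 and Cd81).

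The ferlins are large calcium-binding membrane proteins. Myof encodes myoferlin, which is abundant in myoblasts and promotes their fusion, and its level was 8.84, 9.10 and 8.88 in the Htt siRNA arrays, against 9.13, 9.02 and 9.17 in the scramble arrays. The groups overlapped through Htt siRNA replicate 2. The limma log2 fold change was -0.16 ± 0.10 (SE), 0.893-fold with a 95% interval of 0.759 to 1.05, and an adjusted p of 0.595. Leaving out Htt siRNA replicate 2 separated the groups, with a value of -0.24 and an unadjusted p under 0.05.

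Dysf encodes dysferlin, the ferlin of mature muscle that reseals the membrane and whose human gene is mutated in a limb-girdle dystrophy. Its level was 3.77, 3.51 and 3.67 in the Htt siRNA arrays, against 3.53, 3.65 and 3.67 in the scramble arrays, so the groups overlapped. The limma log2 fold change was 0.04 ± 0.10 (SE), with a 95% interval of 0.877 to 1.20 in folds. The dimmer of its 2 probe sets averaged 3.06 ± 0.16 with Htt siRNA and 3.03 ± 0.18 with scramble (SD, n = 3 each), a difference of 0.03.

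Cav3, the muscle caveolin, and the adhesion receptors Adgrb1 and Adgrb3 were measured at or below the median gene mean. Cav3 stood at 2.30, 2.54 and 2.48 in the Htt siRNA arrays, against 2.38, 2.30 and 2.24 in the scramble arrays, with a log2 fold change of 0.13 ± 0.10 (SE) and a fold interval of 0.939 to 1.28. Adgrb1, a receptor for phosphatidylserine, stood at 2.96, 2.97 and 3.12 in the Htt siRNA arrays, against 2.74, 2.90 and 3.00 in the scramble arrays. Its log2 fold change was 0.14 ± 0.10 (SE), with a fold interval of 0.937 to 1.29. Adgrb3, its paralog, stood at 1.92, 1.82 and 1.92 in the Htt siRNA arrays, against 1.82, 1.93 and 1.76 in the scramble arrays, with a log2 fold change of 0.05 ± 0.09 (SE). For all 3 genes the groups overlapped. At this signal, differences are compressed by RMA, and the table holds no detection calls.

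The tetraspanins Cd9 and Cd81, which gather partner proteins at the surface and are known to limit muscle cell fusion during regeneration in mice, were strongly measured. Cd81 stood at 11.02, 11.06 and 11.06 in the Htt siRNA arrays, against 10.87, 10.87 and 10.99 in the scramble arrays. The groups did not overlap, but the nearest arrays were 0.03 apart. Limma gave a log2 fold change of 0.13 ± 0.08 (SE), a fold interval of 0.963 to 1.25 and an adjusted p of 0.590. Cd9 stood at 8.55, 8.97 and 8.69 in the Htt siRNA arrays, against 8.59, 8.98 and 9.17 in the scramble arrays. Those groups overlapped, and its log2 fold change was -0.17 ± 0.17 (SE), with a fold interval of 0.675 to 1.16. In Cd9 the replicates 1 were the lowest arrays of both groups, unlike Mymk and Tmem182, where the replicates 2 were. The dimmer Cd9 probe set averaged 2.69 ± 0.16 with Htt siRNA and 2.70 ± 0.03 with scramble (SD, n = 3 each), below the median gene mean.

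To describe the array-by-array pattern of the 2 fusion genes with the largest differences, each gene's mean over the 6 arrays was subtracted and the root mean square (RMS) difference from every other gene was taken over the 6 arrays. The genes nearest to Mymk were Chrng, the gamma subunit of the fetal acetylcholine receptor (RMS difference 0.25), Dcn, the proteoglycan decorin (0.25), Tnnt3, fast troponin T (0.27), Mylpf, the fast myosin regulatory light chain (0.28), and Actc1, cardiac actin (0.30), where Mymk itself deviated by 1.15. Their log2 fold changes lay between 1.69 (Dcn, 1.69 ± 0.30) and 2.21 (Actc1, 2.21 ± 0.38). Myog was the 7th nearest of 22179 genes (0.40) and Tmem182 the 19th (0.53). The genes nearest to Tmem182 were Sox8, a transcription factor (0.09), Car3, carbonic anhydrase 3 of muscle (0.10), the secreted CCN protein Ccn3 (0.10), Sgca, the dystrophin-associated protein alpha-sarcoglycan (0.11), and Ogn, the proteoglycan osteoglycin (0.14), where Tmem182 deviated by 0.63. From Tmem182, Mymk was the 2254th nearest of 22179 genes (0.53) and Myog the 21331st (0.86). In each of these 10 genes scramble replicate 2 was the lowest array and Htt siRNA replicate 2 the lowest of its group. The genes were picked for likeness over these same arrays, so the shared pattern and similar fold changes follow from the choice. The measure uses the size of the deviations as well as their order, and all points share the same 6 arrays.

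**Figure D4:**
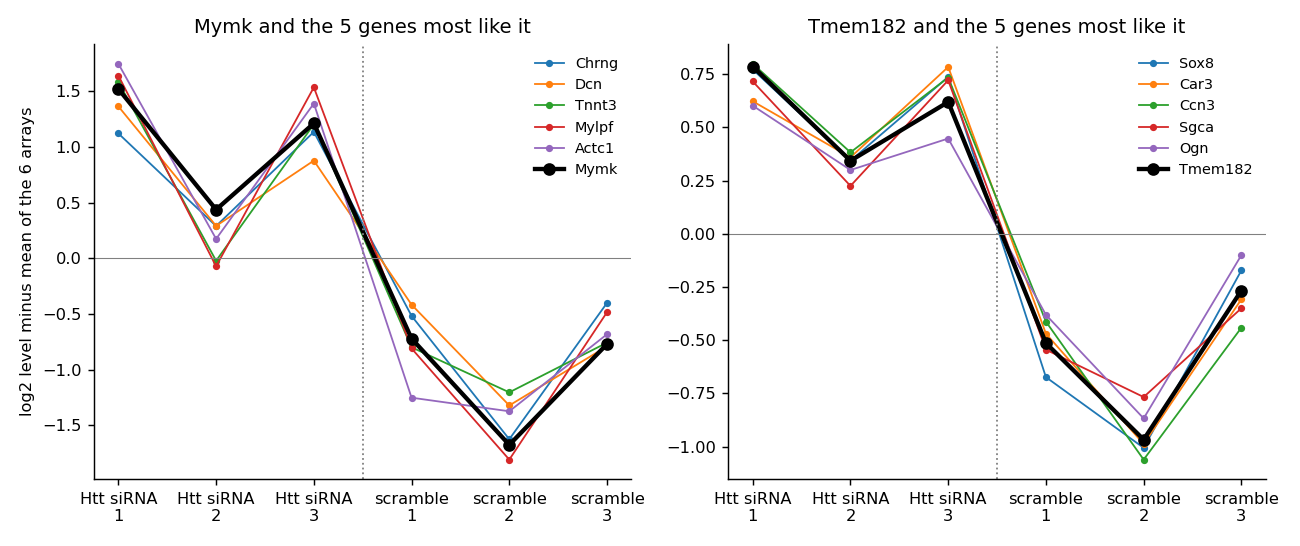
Log2 level minus the mean of the 6 arrays for Mymk (left) and Tmem182 (right), each in black, with the 5 genes of smallest RMS difference. All lines are higher in the Htt siRNA arrays than in the scramble arrays and dip in replicate 2 of both groups. The genes were chosen by this likeness. The vertical scales of the panels differ.

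The muscle factors that act upstream of fusion were led by Myog, myogenin, a direct activator of Mymk. Its level was 7.73, 6.22 and 7.71 in the Htt siRNA arrays, against 4.53, 3.97 and 5.11 in the scramble arrays, again with replicate 2 lowest in both groups. The limma log2 fold change was 2.68 ± 0.44 (SE), with an adjusted p of 0.169. Of 9 measured factors 0 passed and all 9 had positive fold changes (58.2% of all genes did). An unadjusted p under 0.05 was held by 3 (10.9% of all genes). The other two were Mef2a, a MADS-box partner of myogenin (0.42 ± 0.13), and Myod1, the lineage factor (0.66 ± 0.27), whose groups were 0.00499 apart at the nearest arrays. Mef2c, whose product acts with myogenin, had a value of 0.15.

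Among related genes of the same families both directions occurred. Of 16 measured paralogs of the fusion genes and their tetraspanin partners, 0 passed in limma, and the median was 0.07. At an unadjusted p under 0.05, 2 were higher and 2 lower, beside 5.72% and 5.14% of all genes. The count of 4 became 2 (1 higher and 1 lower) without Htt siRNA replicate 1 or Htt siRNA replicate 3. The 2 paralogs of myomaker had log2 fold changes of -0.12 (Pgap6) and 0.18 (Tmem8b). Cd82, a tetraspanin also found on human muscle stem cells, was higher by 0.45 ± 0.08 (SE), and Igsf8, an immunoglobulin protein bound by Cd9 and Cd81, by 0.24 ± 0.10. Cd53, a tetraspanin known from leukocytes, stood at 3.82, 3.82 and 3.71 in the Htt siRNA arrays, against 5.68, 4.88 and 5.04 in the scramble arrays. Its log2 fold change was -1.41 ± 0.19 (adjusted p = 0.163 in limma). Of the 8 macrophage markers, Cd68 and Cd14 were lower by unadjusted p alone and 6 had positive fold changes (median 0.03). Ptprc was at background level. The part of other cells in the Cd53 difference was not tested. Cav1, the widely expressed caveolin, had a value of -0.33 ± 0.13 with overlapping groups.

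Of 27 measured adhesion and signalling genes of fusion, 0 passed, and the median was 0.08. At an unadjusted p under 0.05, 4 were higher and 1 lower, beside 5.72% and 5.14% of all genes. The higher ones were Cxcr4, the receptor of the chemokine Cxcl12 (0.88 ± 0.25), Ncam1, the neural cell adhesion molecule (0.49 ± 0.12), Cdh15, M-cadherin (0.41 ± 0.17), and Rnd3, an atypical small GTPase (0.34 ± 0.08). Integrin alpha-6, Itga6, was lower (-0.27 ± 0.11). The integrin beta-1 gene Itgb1, whose product Tmem182 is reported to bind, had a value of 0.15 with groups that did not overlap. Cdh2, N-cadherin, had a value of -0.12.

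Of 26 measured genes of the actin machinery that pushes a myoblast into another, 0 passed. An unadjusted p under 0.05, which 10.9% of all genes had, was found for 1. This was Elmo1, which with Dock1 activates Rac1 and binds Adgrb receptors (0.53 ± 0.20, groups overlapping). Without Htt siRNA replicate 2, 3 of the 26 were higher and 4 lower at that level, and the count was 0 when Htt siRNA replicate 1 or either of scramble replicates 2 and 3 was left out. The median was -0.03, with Rac1 at -0.21, Dock1 at -0.06 and Elmo2 at -0.11.

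Of 20 measured genes of membrane repair and caveolae, 0 passed, and the median was 0.10. At an unadjusted p under 0.05, 4 were higher and 0 lower, beside 5.72% and 5.14% of all genes. Cavin2, a coat protein of caveolae, had the largest value (0.67 ± 0.12), with 8.24, 8.07 and 8.17 in the Htt siRNA arrays against 7.43, 7.33 and 7.72 in the scramble arrays. Bin1, amphiphysin-2, which shapes the T-tubules of muscle (0.28 ± 0.10), the muscle calpain Capn3 (0.30 ± 0.12) and Trim72, the membrane repair protein MG53 that acts with dysferlin (0.20 ± 0.08), followed. The 6-array mean of Trim72, 2.61, was below the median gene mean. The count was 1 without Htt siRNA replicate 1 or scramble replicate 2, and 2 without scramble replicate 3 or with arrays centred on their medians. It was also 2 among genes above the median gene mean. Of 16 measured genes of phosphatidylserine exposure and recognition, 0 passed and, beside 5.14% of all genes, 1 was lower at an unadjusted p under 0.05. This was Havcr2, the phosphatidylserine receptor TIM-3 (-1.10 ± 0.20). It stood at 3.01, 3.48 and 2.64 in the Htt siRNA arrays against 4.14, 4.27 and 4.02 in the scramble arrays. The count was 3, all lower, without Htt siRNA replicate 2.

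**Figure D5:**
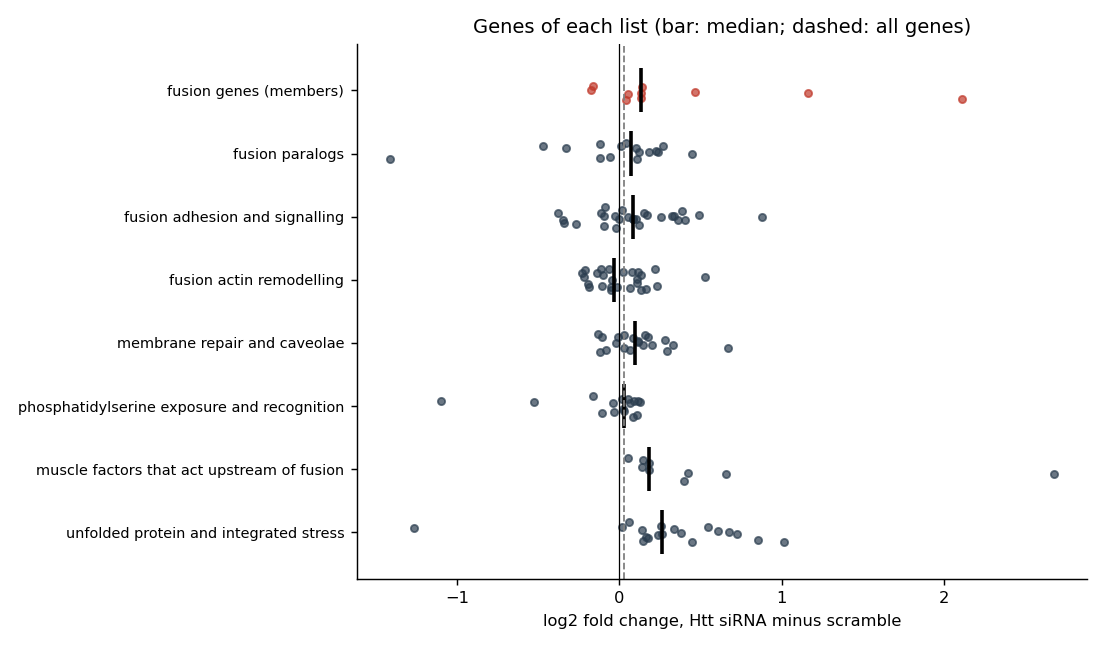
Log2 fold changes, Htt siRNA minus scramble, of the measured genes of each list. Each point is a gene, the black bar is the list's median, and the dashed line is the median of all genes (0.03). Mymk and Tmem182 lie to the right of all genes of the paralog, adhesion, actin, repair and phosphatidylserine lists, and among the muscle factors only Myog lies beyond Mymk.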

How the data were processed

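Gene expression was measured in 6 samples of total RNA, and the authors deposited 1 table of log2 values for 41345 probe sets. Per the submitters' processing notes, RMA and affy were used, with no versions given. RMA corrects background, applies quantile normalization and summarises probes. Quantile normalization hides a change in total RNA, RMA compresses weak signals, and the number of arrays limits the precision. Probe sets were named by the platform annotation. It gave 1 symbol to 23521 of them, of which 23328 matched RefSeq (GRCm38.p6) by Entrez identifier. Each of the 22180 genes was represented by its brightest probe set over the 6 arrays, without a filter on dim genes.

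The groups were compared with limma 3.58.1 in R 4.3.3 (lmFit and eBayes, group as the only term, two-sided, Benjamini-Hochberg over all 22180 genes). The code was run on simulated data with independent noise for each gene. Such data cannot show how the test behaves under deviations shared across genes. Each log2 fold change is the Htt siRNA mean minus the scramble mean. The 14 alternatives varied normalization, filter, probe set rule, variance prior, array weights, a replicate block, a stress covariate and the arrays. The members and lists were chosen with earlier results of these data known. From each list, up to 4 genes per direction with the smallest unadjusted p under 0.05 were named, plus the 5 genes most like Mymk and Tmem182. In the stress list, where no gene was under 0.05 unadjusted, those with the largest absolute log2 fold change were named. Pgap6, Tmem8b, Mef2c, Itgb1, Cdh2, Rac1, Dock1 and Elmo2 were named after their values were seen. So were the single genes of the macrophage, adipocyte, fibroblast and neuronal marker lists. Tables and figures used Python 3.11.15, pandas 2.3.3 and matplotlib 3.10.9.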

Additional observations from a re-analysis of the deposited data

How the results depend on the processing

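The directions of Mymk, Mymx, Tmem182, Myof, Cav3, Cd9, Cd81, Adgrb1 and Adgrb3 were the same in every alternative run, with log2 fold changes of 1.80 to 2.42 for Mymk, 0.97 to 1.32 for Tmem182 and 0.27 to 0.59 for Mymx. Dysf ranged from -0.0230 to 0.11 when single arrays were left out, and was below 0 without replicate 1 of either group (-0.0230 for Htt siRNA, -0.00411 for scramble). Mymx, Cav3 and Adgrb3 have no value among genes above the median gene mean. Neither leaving out a single array nor weighting the arrays could reverse Mymk, Mymx, Tmem182 or Cd81, whose groups did not overlap. The variance prior and the replicate block leave every log2 fold change as it is. So do the filter for genes it keeps and the probe set rule for genes with 1 probe set. The number of genes that passed was 0 as reported, 3 with centred arrays, with repeated quantile normalization and among genes above the median gene mean, 4 with trend and robust, 1 with array weights, 77 with the stress covariate, and 0 to 540 without single arrays (540 without Htt siRNA replicate 2, 1 without scramble replicate 1). Of the 10 fusion genes, 2 passed with the stress covariate (Mymk and Tmem182) and 0 to 2 did without single arrays. An unadjusted p under 0.05 was held by 2 to 4 of them, a fold of at least 2 by 1 to 2 (1 without scramble replicate 2) and separate groups by 4 to 6 without single arrays, the last 2 counts being alternatives chosen after seeing the data. With the stress covariate 1 gene passed in each of the paralog, adhesion, phosphatidylserine and muscle factor lists, and 0 in the other lists. Without single arrays the ranges were 0 to 1 for the paralog, repair and muscle factor lists, 0 to 2 for the phosphatidylserine list and 0 for the adhesion, actin and stress lists, with counts above 0 only without Htt siRNA replicate 2. Array numbers were shared by the titles only: the deviations of same-numbered arrays from their group means correlated across genes with r = 0.35, 0.36 and 0.01, and Htt siRNA replicate 3 correlated best with scramble replicate 1 (0.22). With the replicate number as a block 98 genes passed, including Mymk (adjusted p = 0.00329 in limma) and Tmem182 (0.0246), so that 2 of the 10 fusion genes did, and 1 gene passed in each of the paralog, phosphatidylserine and muscle factor lists. The cause of these moves was not tested.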
